A study of Bos taurus with 38 samples.

Results

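Solute carriers are membrane proteins that move sugars, amino acids, lactate, ions, vitamins and other small molecules across membranes, and 58 of their genes were followed here in Longissimus dorsi (LD) muscle of 38 newborn calves. The 58 are among 27607 genes of the count table. They were chosen by symbol: a gene had to carry a name starting with SLC and a digit, or SLCO, in gene tables that come from the comparisons of Se-supplemented groups with controls, and to reach a mean of 0.5 CPM (counts scaled to a common library size). Carriers of the SLC25 family, which sit in the mitochondrial inner membrane, and SLC2A4 were left out. The symbols came from tables of genes called in TR vs. CTR, so differences between those groups chose the members and are given below as a description without a test. All 58 candidates passed the level rule and the filter on low counts, so none lay below it, and the members just inside were SLC16A12 (0.517 CPM by library size), SLC6A4 (0.541 CPM) and SLC30A4 (0.607 CPM). One member goes against the intended limit to carriers outside mitochondria, because SLC8B1 encodes the sodium-calcium exchanger of the inner mitochondrial membrane.

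The calves were born to Angus and Angus-cross cows. These were first inseminated with sexed semen of 1 bull, and cows that did not conceive were mated to other bulls. The calves thus need not share a sire, and their sex may be tied to the sire. All cows had access to a mineral with 120 mg/kg Se from sodium selenite. Control cows (CTR) received no boluses and gave 10 calves, 4 of them female by the labels used here. The study's report counts 3 females among its CTR calves. Cows of the other groups received 3 Se-yeast boluses per week for 13 weeks, equal to 105 mg Se per week, in the 1st (TR1, 9 calves, 2 female), 2nd (TR2, 10 calves, 3 female) or 3rd (TR3, 9 calves, 5 female) trimester. Biopsies were taken within 12 to 48 h of birth, and dams were 5 to 9 years old.

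Muscle takes up glucose through facilitative carriers of the SLC2 family and releases lactate through proton-linked carriers of the SLC16 family. Leucine and other large neutral amino acids enter through exchangers made of a heavy chain (SLC3A2) and a light chain of the SLC7 family, or through carriers of the SLC43 family, and they feed the growth-controlling mTORC1 pathway. Several amino acid carrier genes and the enzymes of serine synthesis (PHGDH, PSAT1) are known targets of the transcription factor ATF4. Creatine, which buffers ATP in contracting fibres, enters through SLC6A8.

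The deposited values were raw counts per Ensembl gene, between 12921223 and 17471666 per calf, and 12964 genes were tested. Values are given in CPM scaled by TMM factors, which lay between 0.887 and 1.35. The markers of the labelled tissue were abundant, with a summed level of 11 skeletal muscle markers between 46360 and 175500 CPM and none of them at 0. Of marker lists for other cell types, fibroblast markers (8 genes) summed to between 235 and 1264 CPM, leukocyte markers (7 genes) to between 24.8 and 342 CPM and adipocyte markers (4 genes) to between 2.996 and 45.6 CPM. In bulk tissue, fewer cells of a type and less RNA per cell cannot be told apart. The labels do not say which strand column was counted, so reads of overlapping genes may be mixed. In RefSeq (ARS-UCD2.0), 9 of the 58 genes overlap a protein-coding gene, among them SLC16A3, SLC16A6, SLC16A7, SLC2A12, SLC44A3 and SLC7A6.

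Some calves stood apart and carried many of the extreme values. TR1 calf A2052 was the highest of 38 for 7 members and the lowest for 6, and also had the lowest ACTA1 (8701 CPM, against a median of 44020). TR2 calf A2023 was the highest for 2 and the lowest for 8, and TR2 calf A2100 was the highest for 7. These calves had the highest scores on the main axis along which all genes varied, which is described below. Values are given without the 3 calves where they changed the result.

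Amino acid carriers were the largest role with 13 members, and SLC3A2, SLC7A5, SLC7A1 and SLC1A4 reached their highest values in the same 4 calves. SLC3A2 (ENSBTAG00000013240), the 4F2hc heavy chain, ranged from 42.1 to 302 CPM. Its group medians were 111.5 CPM in CTR calves and 101.6, 99.2 and 104.5 CPM in the TR1, TR2 and TR3 calves. SLC7A5 (ENSBTAG00000006731), the light chain LAT1 that brings in leucine, ranged from 0 in CTR calf A2038 to 35.4 CPM in TR1 calf A2058. The 4 calves, A2057 and A2058 of TR1 and A2065 and A2074 of TR3, were also the highest for SLC7A1 (the arginine and lysine carrier CAT1) and SLC1A4 (the neutral amino acid exchanger ASCT1). SLC7A1 reached 37.3 CPM and SLC1A4 68.2 CPM in A2058, where the medians of all calves were 6.99 and 11.0 CPM.

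Over the 38 calves, with dam age, sex and group removed, SLC7A5 correlated with its heavy chain SLC3A2 at r = 0.748 (Spearman's rho = 0.687, permutation test, adjusted p = 5.25e-05 for both). The pair of SLC7A1 and SLC7A5 had r = 0.745 (rho = 0.677, adjusted p = 5.25e-05 for both), and SLC1A4 with SLC1A5, the glutamine exchanger ASCT2, had r = 0.613 (rho = 0.566, adjusted p = 0.0002625 for r). Without the 2 calves farthest from the median of the first gene these values were 0.675, 0.669 and 0.534, and all passed 0.05. Among all member pairs, which were read after the values were seen and carry no test, SLC7A1 and SLC3A2 had the highest r (0.898). Other partners of the heavy chain were looser. SLC3A2 had r = 0.348 with SLC7A6, the light chain y+LAT2 (permutation test, adjusted p = 0.0525), with rho = 0.408 (adjusted p = 0.0219) and r = 0.367 without A2057 and A2058 (adjusted p = 0.0483). Without the 3 calves that stood apart r was 0.421 (adjusted p = 0.0273), so the call by r was gained in both. With SLC7A8, the light chain LAT2, it had r = 0.258 (adjusted p = 0.164), rho = 0.340 (adjusted p = 0.0609) and 0.321 without 2 calves.

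The carriers of this group also varied with the first enzymes of serine synthesis. SLC7A5 had r = 0.704 with PHGDH (rho = 0.690, adjusted p = 5.25e-05) and r = 0.619 with PSAT1 (rho = 0.595, adjusted p = 0.00018), and SLC1A4 had r = 0.649 with PHGDH (rho = 0.622, adjusted p = 7e-05), all by permutation test. Without the 2 calves farthest from the median of the carrier, which were A2057 and A2058 for each pair, the values were 0.607, 0.507 and 0.535 and passed 0.05. PSAT1 ranged from 1.21 to 180.7 CPM and was highest in A2058, and PHGDH ranged from 1.54 to 116 CPM and was highest in A2057. Within groups, SLC7A5 and PHGDH had r = 0.482 within CTR, 0.969 within TR1, 0.0824 within TR2 and 0.690 within TR3. SLC7A5 and PSAT1 had 0.438, 0.938, -0.324 and 0.795 in the same order. The value in TR2 was the lowest for both pairs and for SLC1A4 with PHGDH (0.536, 0.919, -0.0811 and 0.789). It was also the lowest for SLC3A2 with SLC7A5 (0.273) and SLC7A6 (0.201), SLC7A1 with SLC7A5 (0.318) and SLC1A4 with SLC1A5 (0.327). With SLC7A8, SLC3A2 had 0.460 in TR2 and its lowest value in CTR (0.0117). The low values in TR2 were thus not limited to the serine enzymes, and the difference between groups was not tested. SLC3A2, SLC7A5, SLC7A1 and SLC1A4 had r of 0.0487, 0.0237, -0.0622 and -0.194 with the main axis between calves. With the axis computed again without the 3 calves that stood apart, the values were -0.428, -0.249, -0.465 and -0.578.

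**Figure D1:**
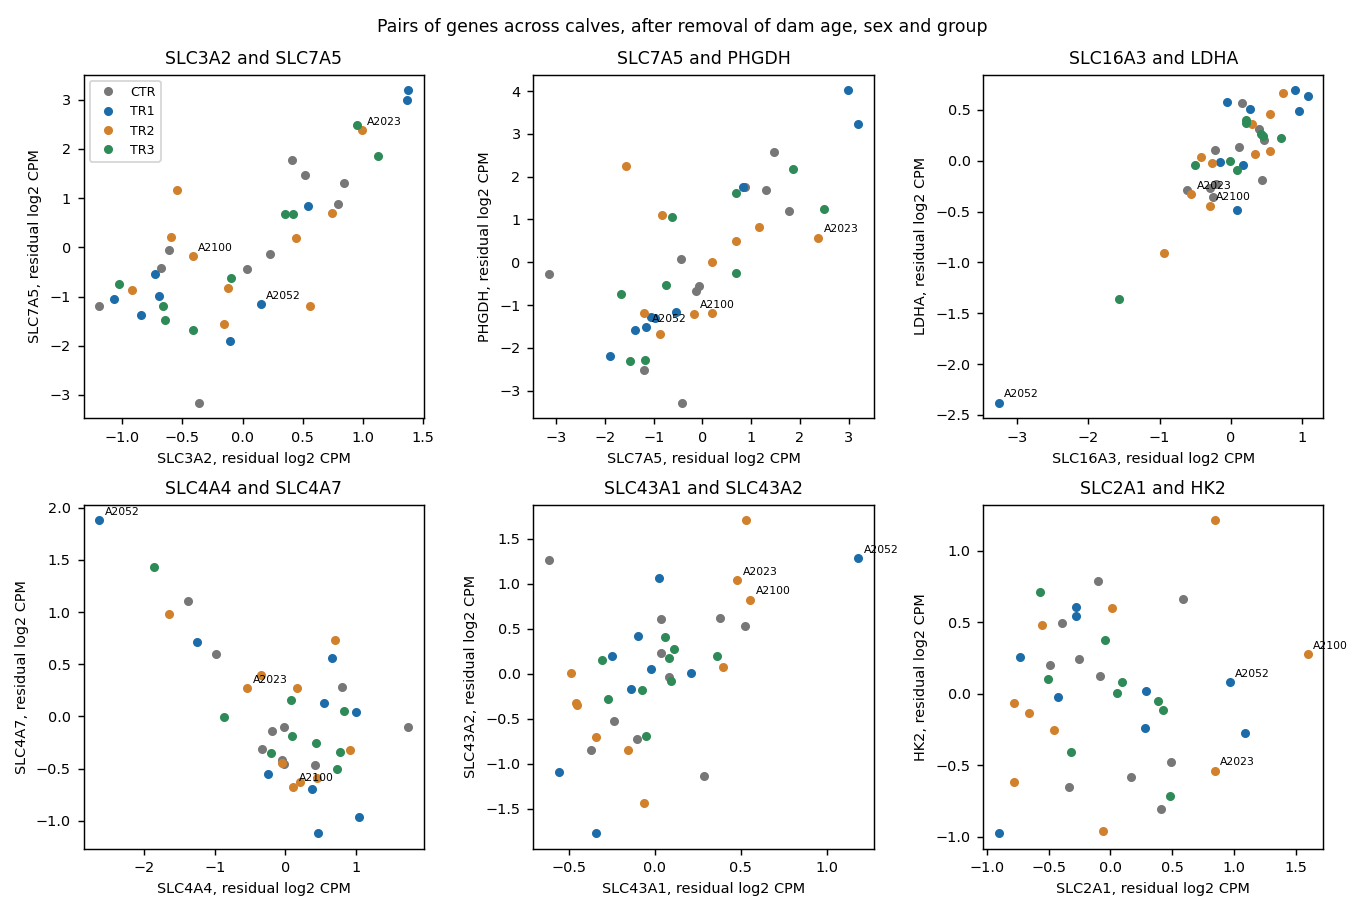
Residual log2 CPM of 6 pairs of genes in 38 calves after removal of dam age, sex and group, 1 point per calf coloured by group, with calves A2023, A2052 and A2100 named. SLC3A2 with SLC7A5 (r = 0.748) and SLC7A5 with PHGDH (r = 0.704) spread along the diagonal over many calves, A2052 lies far from the others for SLC16A3 with LDHA and SLC4A4 with SLC4A7, and SLC2A1 with HK2 shows no slope (r = 0.0362).

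The high values of SLC7A5 in TR1 and TR3 belonged to a few calves. SLC7A5 had lowest, median and highest values of 0, 1.69 and 6.31 CPM in CTR and 0.514, 0.926 and 35.4 CPM in TR1. They were 0.608, 1.48 and 5.85 CPM in TR2, and 0.632, 1.71 and 16.9 CPM in TR3. All groups overlapped, and the TR1 median lay below that of CTR. Its log2 fold change was 1.45 ± 0.78 (SE), 0.15 ± 0.76 and 1.62 ± 0.77 in the order TR1, TR2 and TR3. The TR1 value was 0.61 without calf A2058, and the TR2 value -0.34 without calf A2023. SLC1A4 had 0.75 ± 0.51 in TR3, with 5 of 9 calves above the CTR median, and 0.43 without A2074. In TR1 it had 0.14 ± 0.52, and -0.37 without A2058.

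SLC7A8 (ENSBTAG00000007415), the exchanger LAT2, and the leucine carriers of the SLC43 family had their highest values in other calves. SLC7A8 had lowest, median and highest values of 8.94, 18.0 and 38.7 CPM in CTR and 8.804, 25.3 and 720.3 CPM in TR1. In TR2 they were 14.8, 29.7 and 157 CPM, and in TR3 8.19, 19.4 and 32.5 CPM. Calf A2052 held the value of 720.3 CPM, and the next TR1 calf had 36.8 CPM. In TR2, 9 of 10 calves lay above the CTR median, and the ranges overlapped. The log2 fold changes were 1.56 ± 0.58, 1.65 ± 0.54 and -0.45 ± 0.57 in TR1, TR2 and TR3. Without A2052 it was 0.20 in TR1 and 0.11 in TR3, and without TR2 calf A2099 it was 1.04 in TR2. All groups shared the dam age and sex terms, so a calf of 1 group enters the values of the others.

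SLC43A2, the leucine carrier LAT4, had medians of 32.7 CPM in CTR calves and 45.1, 57.1 and 37.9 CPM in the TR1, TR2 and TR3 calves. The ranges were wide, from 16.5 to 105 CPM in CTR and from 27.6 to 167 CPM in TR2. Its log2 fold change in TR2 was 0.96 ± 0.36, with 7 of 10 calves above the CTR median. SLC43A1, the leucine carrier LAT3, had medians of 22.9, 26.0, 26.2 and 21.1 CPM in CTR, TR1, TR2 and TR3 and was highest in A2052 (78.9 CPM). Both SLC43 carriers correlated at r = 0.517 (rho = 0.544, permutation test, adjusted p = 0.00177 for r), and at 0.422 without A2052 and A2100. The value was 0.676 in males and -0.0896 in females, and 0.338 without the 3 calves that stood apart (adjusted p = 0.0881), so the call was lost without those calves. In CTR alone it was 0.0304.

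**Figure D2:**
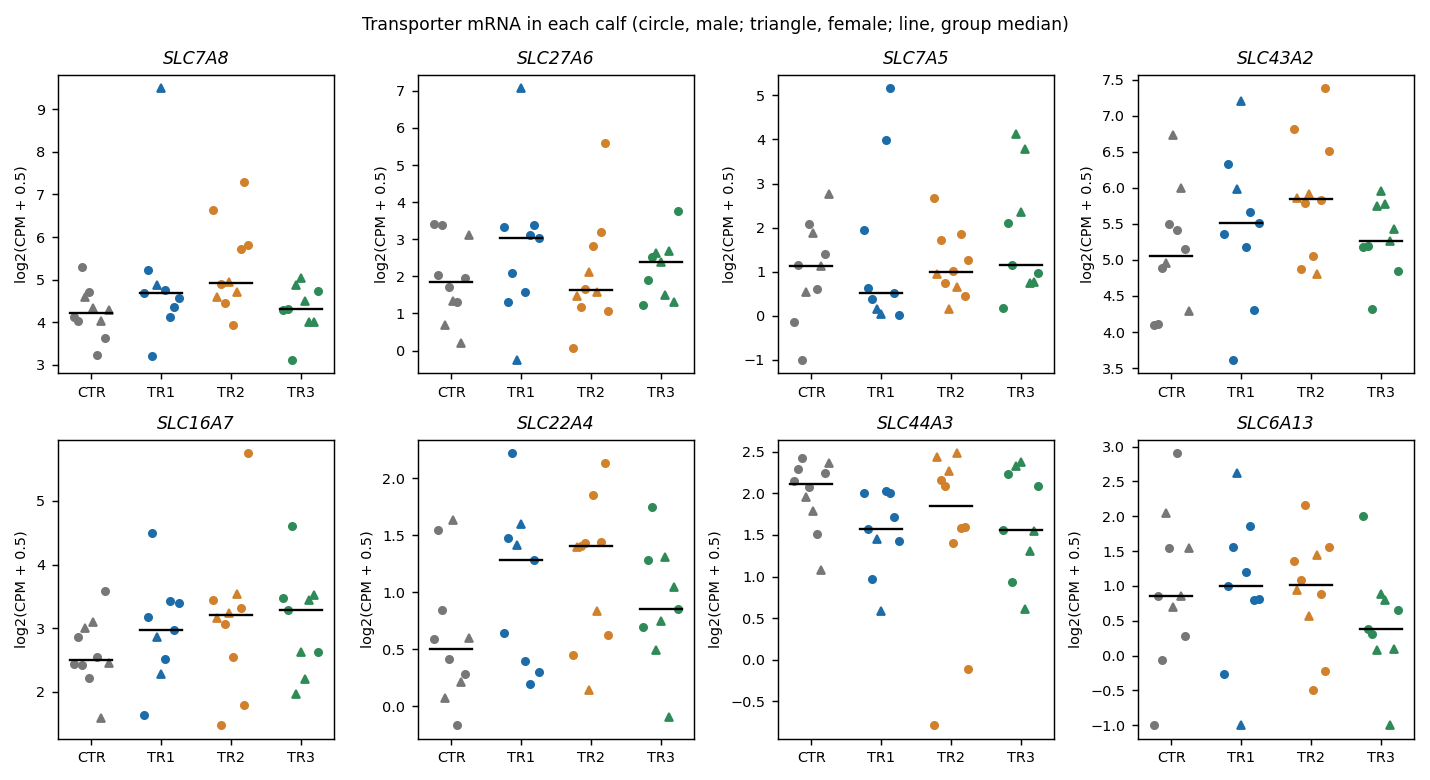
log2(CPM + 0.5) of 8 transporter genes in each calf, by group, with circles for males, triangles for females and a line at the group median. Groups overlap in every panel, and single calves set the highest values of SLC7A8 (720.3 CPM) and SLC27A6 (134 CPM) in TR1 and of SLC16A7 (53.2 CPM) in TR2.

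Of the monocarboxylate carriers, SLC16A3 (ENSBTAG00000017461), the lactate exporter MCT4 of glycolytic fibres, correlated with LDHA, the muscle form of lactate dehydrogenase. SLC16A3 ranged from 135 to 230.2 CPM in CTR, from 14.8 to 325 for TR1, from 104 to 290.1 for TR2 and from 69.3 to 334 CPM for TR3, with medians of 174, 198, 190.4 and 234 CPM. The pair had r = 0.906 (rho = 0.763, permutation test, adjusted p = 5.25e-05), the highest of the 21 pairs tested. Calf A2052 was lowest in both genes (741 CPM of LDHA), and r was 0.758 without it and 0.7505 without A2052 and A2033. In CTR alone r was 0.416, and in TR1, TR2 and TR3 it was 0.946, 0.872 and 0.913. With the main axis between calves, SLC16A3 had r = -0.746 and LDHA r = -0.789. The part of that axis in the pair was not tested. SLC16A3 and SLC16A1, the lactate and pyruvate carrier MCT1, had r = 0.336 (rho = 0.225, permutation test, adjusted p = 0.0634 for r), which was -0.018 without A2052 and 0.0566 without A2052 and A2090.

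SLC16A7, the high-affinity pyruvate carrier MCT2, had lowest, median and highest values of 2.51, 5.16 and 11.5 CPM in CTR and 2.595, 7.33 and 21.95 in TR1. In TR2 they were 2.28, 8.71 and 53.2 CPM and in TR3 3.42, 9.21 and 23.9 CPM. Above the CTR median were 7 of 9 TR1 calves, 8 of 10 TR2 calves and 7 of 9 TR3 calves, and all ranges overlapped. The log2 fold changes were 0.41 ± 0.42, 0.83 ± 0.42 and 0.75 ± 0.43, the TR1 value was 0.13 without A2040, the TR2 value 0.30 without A2100 and the TR3 value 0.496 without A2033. SLC16A6, a ketone body carrier, ranged from 35.9 to 379 CPM over all calves, with medians of 178, 114, 238.5 and 210.5 CPM in CTR, TR1, TR2 and TR3. SLC16A12, a creatine carrier near the limit of detection, was at 0 in calf A2033. SLC16A13, a lactate carrier picked after its values were seen, lay above the CTR median in 9 of 9 TR1 calves (medians 2.11 CPM in CTR and 3.32 in TR1, log2 fold change 0.42 ± 0.21), with overlapping ranges.

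The sugar carriers had 5 members. SLC2A12 (GLUT12) had medians of 6.299 CPM in CTR calves and 6.86, 6.25 and 5.94 CPM in the TR1, TR2 and TR3 calves, and its 38 values spread from 0.158 CPM in A2023 to 12.85 CPM. The log2 fold changes were 0.0072, -0.23 and -0.046 in TR1, TR2 and TR3, with SEs of 0.41, 0.39 and 0.42. SLC2A3 (GLUT3) had medians of 6.77, 5.93, 6.41 and 5.68 CPM, and 1 of 9 TR1 calves was above the CTR median (log2 fold change -0.38 ± 0.21, and -0.21 without CTR calf A2034). SLC2A1 (GLUT1), picked after its values were seen, had medians of 1.50, 1.79, 2.48 and 2.125 CPM, and 10 of 10 calves of TR2 exceeded the CTR median (log2 fold change 0.90 ± 0.31, and 0.43 without the 3 calves that stood apart). SLC2A1 did not pass 0.05 with SLC2A3 (r = 0.175, rho = 0.1485, permutation test, adjusted p = 0.361 for r), at 0.0842 without 2 calves. With hexokinase HK2 it had r = 0.0362 (rho = -0.0198, permutation test, adjusted p = 0.904 for r), at 0.0279 without 2 calves.

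Carriers of lipids and carnitine had 3 members. SLC27A6 (ENSBTAG00000004860), the fatty acid uptake protein FATP6, had lowest, median and highest values of 0.657, 3.09 and 10.1 CPM in CTR and 0.3395, 7.70 and 134 CPM in TR1. In TR2 they were 0.553, 2.585 and 47.7 CPM and in TR3 1.82, 4.72 and 13.1 CPM. The TR2 median was below that of CTR. The log2 fold change was 1.77 ± 0.83 in TR1 and -0.03 without A2052. In TR2 it was 1.03 ± 0.77 and -0.42 without A2099, so each fitted direction turned without 1 calf. TR1 calves other than A2052 also lay above the CTR median of 3.09 CPM, up to 10.03 CPM in A2067, and others below it, down to 0.3395 CPM in A2047.

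SLC22A4, the ergothioneine and carnitine carrier OCTN1, had medians of 0.919 CPM in CTR calves and 1.93, 2.15 and 1.303 CPM in the TR1, TR2 and TR3 calves. Above the CTR median were 6 of 9, 8 of 10 and 7 of 9 calves, and the log2 fold changes were 0.57 ± 0.39, 0.73 ± 0.37 and 0.29 ± 0.40. No calf left out turned the direction of SLC22A4 in any comparison, but the TR1 value was 0.34 without A2040 and the TR3 value 0.099 without A2033. SLC44A3, a choline transporter-like protein, had medians of 3.83, 2.48, 3.14 and 2.46 CPM in CTR, TR1, TR2 and TR3. In TR1, 0 of 9 calves lay above the CTR median, although the ranges overlapped. Its log2 fold changes were -0.46 ± 0.36, -0.33 ± 0.34 and -0.16 ± 0.37, and the TR2 value was -0.17 without calf A2023, which had 0.079 CPM, and the TR3 value -0.034 without A2033. SLC22A4 and SLC27A6 had r = 0.211 (rho = 0.127, permutation test, adjusted p = 0.266 for r), at 0.264 without 2 calves. With CPT1A, the gate of fatty acid entry into mitochondria, SLC22A4 had r = 0.0276 (rho = 0.0498, 0.0925 without 2 calves) and SLC27A6 -0.0201 (rho = -0.0494, -0.282 without 2 calves), both with an adjusted permutation p of 0.904.

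Among amine and creatine carriers, SLC6A8, the creatine transporter, was one of the steadiest members, from 40.1 to 91.3 CPM over all calves. Its medians were 54.8 CPM in CTR calves and 59.7, 66.1 and 56.99 CPM in the TR1, TR2 and TR3 calves, and 9 of 10 calves of TR2 exceeded the CTR median (log2 fold change 0.29 ± 0.13). SLC6A8 correlated with CKM, which encodes muscle creatine kinase, at r = 0.424 (rho = 0.442, permutation test, adjusted p = 0.0148), at 0.382 without 2 calves and at 0.318 without calf A2040 (adjusted p = 0.0863). With library sizes in place of TMM it was 0.307 and did not pass. SLC6A13, a GABA and taurine carrier, was at 0 in 3 calves and reached 6.98 CPM, with a log2 fold change of -1.03 ± 0.67 in TR3 and -0.56 without CTR calf A2088. The serotonin carrier SLC6A4 had medians of 0.285 CPM in CTR calves and 0.550, 0.568 and 0.632 CPM in the TR1, TR2 and TR3 calves, and 7 of 9, 9 of 10 and 8 of 9 calves lay above the CTR median. A value of 0.5 CPM corresponded to about 6.46 counts in the shallowest library.

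SLC29A1, the nucleoside carrier ENT1, was held between 92.3 and 215 CPM in 37 calves and was at 482 CPM in A2052. Group medians were 113 CPM in CTR calves and 129.1, 129.0 and 113 CPM in the TR1, TR2 and TR3 calves. The folate carriers SLC19A1 and SLC46A1 had r = -0.382 (adjusted p = 0.0306, permutation test), but rho was -0.278 (adjusted p = 0.134) and r was -0.273 without A2066 and A2100 (adjusted p = 0.1496) and -0.153 without the 3 calves that stood apart (adjusted p = 0.497). With the main axis between calves, SLC19A1 had r = 0.704 and SLC46A1 r = -0.680, and the part of that axis in the pair was not tested. SLC46A1 ranged from 0.3055 to 3.89 CPM and SLC19A1 from 0.628 to 4.035 CPM. The thiamine carrier SLC19A2 ranged from 3.06 to 11.4 CPM.

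Ion carriers had 12 members, and both pairs tested were negatively correlated. SLC4A4 and SLC4A7, the sodium bicarbonate cotransporters NBCe1 and NBCn1, had r = -0.671 (rho = -0.404, permutation test, adjusted p = 7e-05 for r and 0.0219 for rho). SLC4A7 had medians of 30.9 CPM in CTR calves and 57.4, 41.7 and 40.9 CPM in the TR1, TR2 and TR3 calves and reached 180.4 CPM in A2052, where SLC4A4 was lowest of all calves at 0.421 CPM. Without A2052 and A2033 r was -0.476, without the 3 calves that stood apart -0.520 (adjusted p = 0.00343), and it was negative in each group, from -0.839 in TR3 to -0.522 in CTR. SLC12A2 and SLC12A4, which bring chloride in (NKCC1) and let it out (KCC1), had r = -0.483 (rho = -0.408, permutation test, adjusted p = 0.004998 for r) and -0.446 without A2040 and A2023, but -0.257 without the 3 calves (adjusted p = 0.202). SLC12A4 was between 8.38 and 38.9 CPM and SLC12A2 between 2.84 and 31.7 CPM. With the main axis between calves, SLC4A4 and SLC4A7 had r of -0.498 and 0.483, and SLC12A2 and SLC12A4 -0.415 and 0.842. The part of that axis in both pairs was not tested. The log2 fold change of SLC4A7 was 0.68 ± 0.33 in TR1 and 0.23 without A2052, and 0.30 ± 0.34 in TR3 and -0.056 without A2033. SLC9A5, a sodium-proton exchanger, had medians of 31.9, 22.5, 23.7 and 35.7 CPM in CTR, TR1, TR2 and TR3, and 7 of 9 TR1 calves and 7 of 10 TR2 calves lay below the CTR median.

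Metal carriers had 3 members. SLC31A2, a copper carrier, ranged from 6.64 to 34.9 CPM and SLC39A14, the zinc, iron and manganese importer ZIP14, from 4.85 to 34.0 CPM. SLC39A14 had r = 0.0245 with the metallothionein gene MT2A (rho = 0.146, permutation test, adjusted p = 0.904 for r), at 0.0921 without 2 calves. SLC30A4, the zinc carrier ZnT4, was at 0 in calf A2091. Of the nucleotide sugar branch, SLC35A3, which brings UDP-N-acetylglucosamine into the Golgi, was the steadiest member of all (3.62 to 8.17 CPM), and the orphans SLC35E3 and SLC35E4 ranged from 2.21 to 13.2 and from 7.36 to 37.8 CPM. SLC22A17, a lipocalin receptor, and the orphan SLC22A23 ranged from 2.02 to 6.55 and from 5.54 to 39.1 CPM, the latter highest in A2100.

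Over all 58 members, 34 had a positive log2 fold change in TR1, 35 in TR2 and 34 in TR3, with medians of 0.058, 0.11 and 0.075, beside 0.0016, 0.0075 and -0.0093 over all genes tested. Each of the 3 contrasts with CTR had 0 members and 0% of all genes past an adjusted p of 0.05 in edgeR's quasi-likelihood test, and since the same contrasts chose the members nothing is read from these counts. In all 58 genes the range of each supplemented group overlapped that of CTR. The share over all genes was not computed, so nothing particular to the members is read from this overlap. The 3 comparisons share the CTR calves, and 21 members were positive in all of them while 11 were negative. Amino acid carriers were positive for 11, 8 and 9 of 13 members in TR1, TR2 and TR3, monocarboxylate carriers for 6, 6 and 7 of 8, ion carriers for 6, 9 and 9 of 12, and carriers of vitamins and nucleosides for 1 of 4 in each. The share of other genes alike in all 3 comparisons was not computed, so nothing particular to the members or roles is read from these counts. In size, the log2 fold changes had a median of 0.31, 0.28 and 0.29 in members. The median was 0.22, 0.296 and 0.19 in the 2834 other tested genes with a symbol in the same tables. In TR2, all 8 fibroblast markers had a negative log2 fold change at an unadjusted p under 0.05 in the same test (median -0.62). At that limit were 8.34% of all genes and 23.1% of the 2834 other genes with a symbol. The markers were themselves limited to genes with a symbol in those tables, so nothing is read from this count. Their sum was 453 to 1193 CPM in CTR and 311 to 633 CPM in TR2. Their part in the values of TR2 was not tested.

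**Figure D3:**
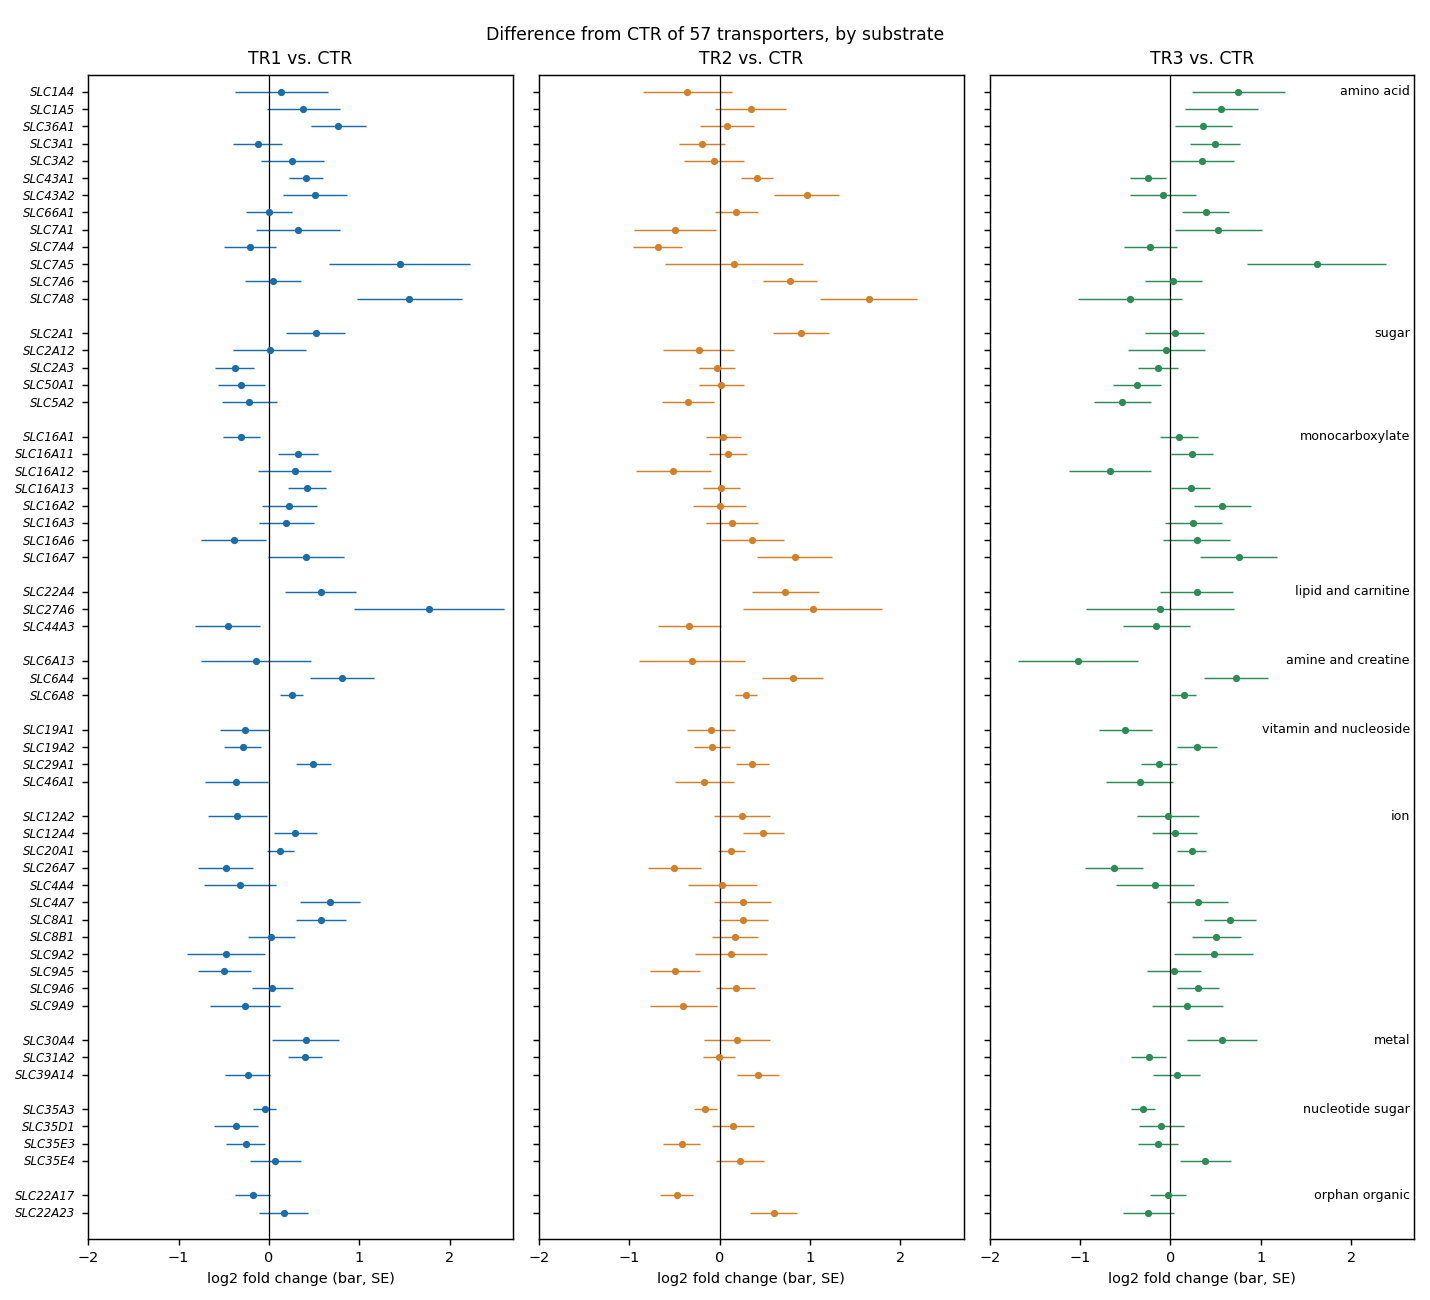
Log2 fold change of 57 transporter genes in TR1, TR2 and TR3 vs. CTR from edgeR, grouped by substrate, with bars for the SE. The largest values belong to SLC27A6 (1.77), SLC7A8 (1.56) and SLC7A5 (1.45) in TR1, SLC7A8 (1.65) in TR2 and SLC7A5 (1.62) in TR3, and most other members lie within 1 log2 unit of CTR.

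Offspring sex and dam age were not used to choose the members, although the groups differed in their share of females and in the range of dam age. Dams were 6 to 9 years old in CTR, 5 to 9 in TR1 and TR2, and 5 to 8 in TR3. The first semen was sexed and the labels name no sire, so offspring sex and sire cannot be told apart here. For sex, edgeR's quasi-likelihood test called 0 members at an adjusted p of 0.05, where 0.0309% of all genes were called, and DESeq2 also called 0. At an unadjusted p under 0.05 there were 5 members (8.62%), beside 6.61% of all genes. With the 3 calves set aside there were 7 members (12.1%), beside 13.4% of all genes, so the order of the shares turned. Among the 5 members in the fit to all calves, SLC7A8 (log2 fold change 0.97 ± 0.42), SLC43A2 (0.61 ± 0.27) and SLC31A2 (0.33 ± 0.14) were higher in females. SLC35A3 was higher in males. The smallest adjusted p was 0.646, for SLC35A3, which had a median of 5.13 CPM in 14 females and 6.17 CPM in 24 males and a log2 fold change of -0.24 ± 0.098. Calf A2052 is female, and without it the value of SLC7A8 was -0.15, that of SLC31A2 0.14 and that of SLC43A2 0.40. Of 27 partner genes of the carriers (enzymes of glycolysis, serine synthesis and creatine metabolism among them), 0 were called for sex or dam age, and at an unadjusted p under 0.05 there was 1 lower in females (FABP3, -0.58) and 1 in each direction for dam age (CHAC1, 0.30, and DDIT3, -0.16).

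For dam age, 0 members and 0% of all genes were called at an adjusted p of 0.05, and DESeq2 called 0 members. At an unadjusted p under 0.05 there was 1 member (1.72%), beside 3.36% of all genes. With the 3 calves set aside there were 2 (3.45%), beside 2.2% of all genes, and this order turned too. The 1 member in the fit to all calves was SLC12A4, at -0.15 ± 0.068 log2 units per year of dam age, and -0.091 without A2052. SLC7A8 (-0.32 ± 0.16) and SLC43A1 (-0.11 ± 0.056) followed, at -0.0033 and -0.045 without A2052, and edgeR's adjusted p was 0.993 for all of them.

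The transporter genes had a wider spread between calves than the median gene. The SD of log2 CPM after removal of dam age, sex and group had a median of 0.614 in the 58 members and 0.372 in all genes tested, and 47 of 58 members lay above the median of the 500 genes nearest in level. The 2834 other genes with a symbol in the source tables had a median of 0.53. The count against genes near in level was not made for them, so a spread particular to transporters was not tested. Without the 3 calves that stood apart, the medians were 0.546 in members and 0.328 in all genes. The largest SD belonged to SLC27A6 (1.61), SLC7A5 (1.575), SLC6A13 (1.43), SLC2A12 (1.11) and SLC1A4 (1.09). Without the 3 calves SLC27A6 had 1.18 and SLC2A12 0.688, while SLC7A5 had 1.565 and SLC1A4 1.09. The smallest belonged to SLC20A1, a phosphate carrier (0.323), SLC6A8 (0.279) and SLC35A3 (0.257). Between the highest and the lowest calf the ratio of CPM had a median of 7.44 over the 54 members with no calf at 0, from 2.26 in SLC35A3 to 395 in SLC27A6.

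The main axis between calves, the first principal component of all tested genes other than the members, held 17.1% of the variance after removal of dam age, sex and group. It was set so that NAMPT was positive (r = 0.807). Where the 3 calves were set aside, the axis was computed again. That axis held 11.5% of the variance and had r = 0.778 with the first over the remaining calves. Of the members, 9 had r of 0.5 or more and 9 had -0.5 or less, together 31.0%, beside 26.65% of all genes. SLC12A4 (0.84), SLC7A6 (0.79) and SLC29A1 (0.78) were the highest, and SLC2A12 (-0.896) and SLC9A9 (-0.85), an endosomal sodium-proton exchanger, the lowest. SLC2A12 and SLC7A6 thus stood at opposite ends, with r = -0.862 between them over the 38 calves, the lowest of 1653 member pairs. Amino acid carriers had 4 members at 0.5 or more (SLC7A6, SLC43A1, SLC7A8 and SLC43A2) and none at -0.5 or less, but with the 3 calves set aside all 4 were under 0.5 (0.305, 0.324, 0.0386 and 0.190) and SLC1A4 was at -0.578.

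The same axis correlated with the share of counts in the 10 most abundant genes (r = -0.762) and with the TMM factor (r = 0.602), and with total counts at r = 0.0279. The summed markers of skeletal muscle (r = -0.699), leukocytes (r = -0.684) and fibroblasts (r = -0.6295) also followed it, with 5 of 11, 2 of 7 and 6 of 8 genes at -0.5 or less, while the skeletal muscle marker DES was at 0.61. Their part in the place of the transporters was not tested. With the 3 calves of the highest scores set aside, 4 members had r of 0.5 or more (SLC4A7, SLC12A4, SLC19A1 and SLC22A4) and 8 had -0.5 or less. SLC7A8 then had r = 0.0386, SLC7A6 0.305 and SLC29A1 0.348, while SLC12A4 had 0.64, SLC9A9 -0.695 and SLC2A12 -0.522. With library sizes in place of TMM the split was 12 and 5.

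**Figure D4:**
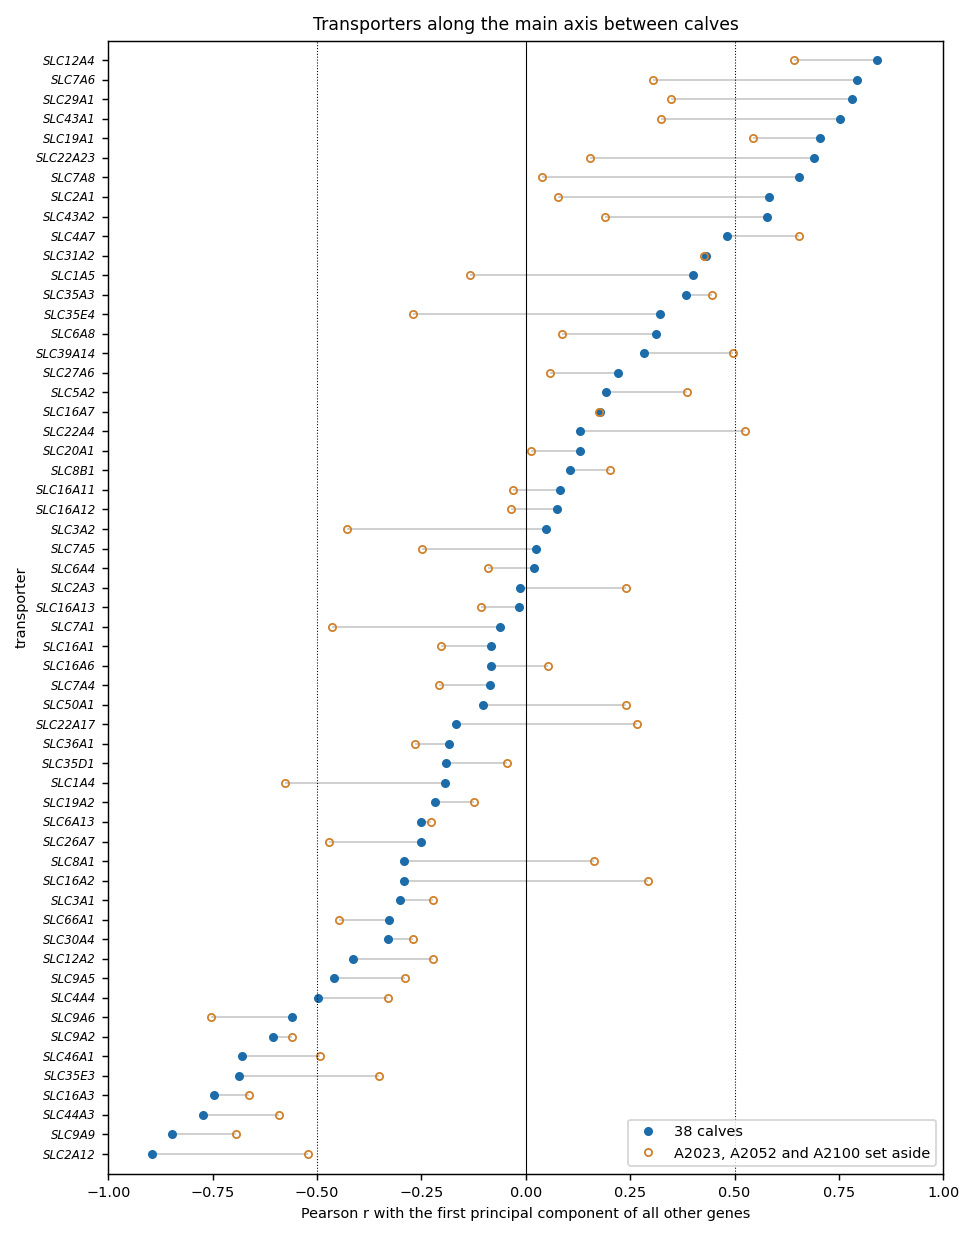
Pearson r of each of 57 transporters with the first principal component of all other genes over 38 calves (filled) and over 35 calves with A2023, A2052 and A2100 set aside (open), with dotted lines at 0.5 and -0.5. The component was computed again for the 35 calves and had r = 0.778 with the first. SLC12A4, SLC2A12, SLC9A9 and SLC16A3 stay beyond the lines in both, and SLC7A8 moves from 0.65 to 0.0386.

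**Figure D5:**
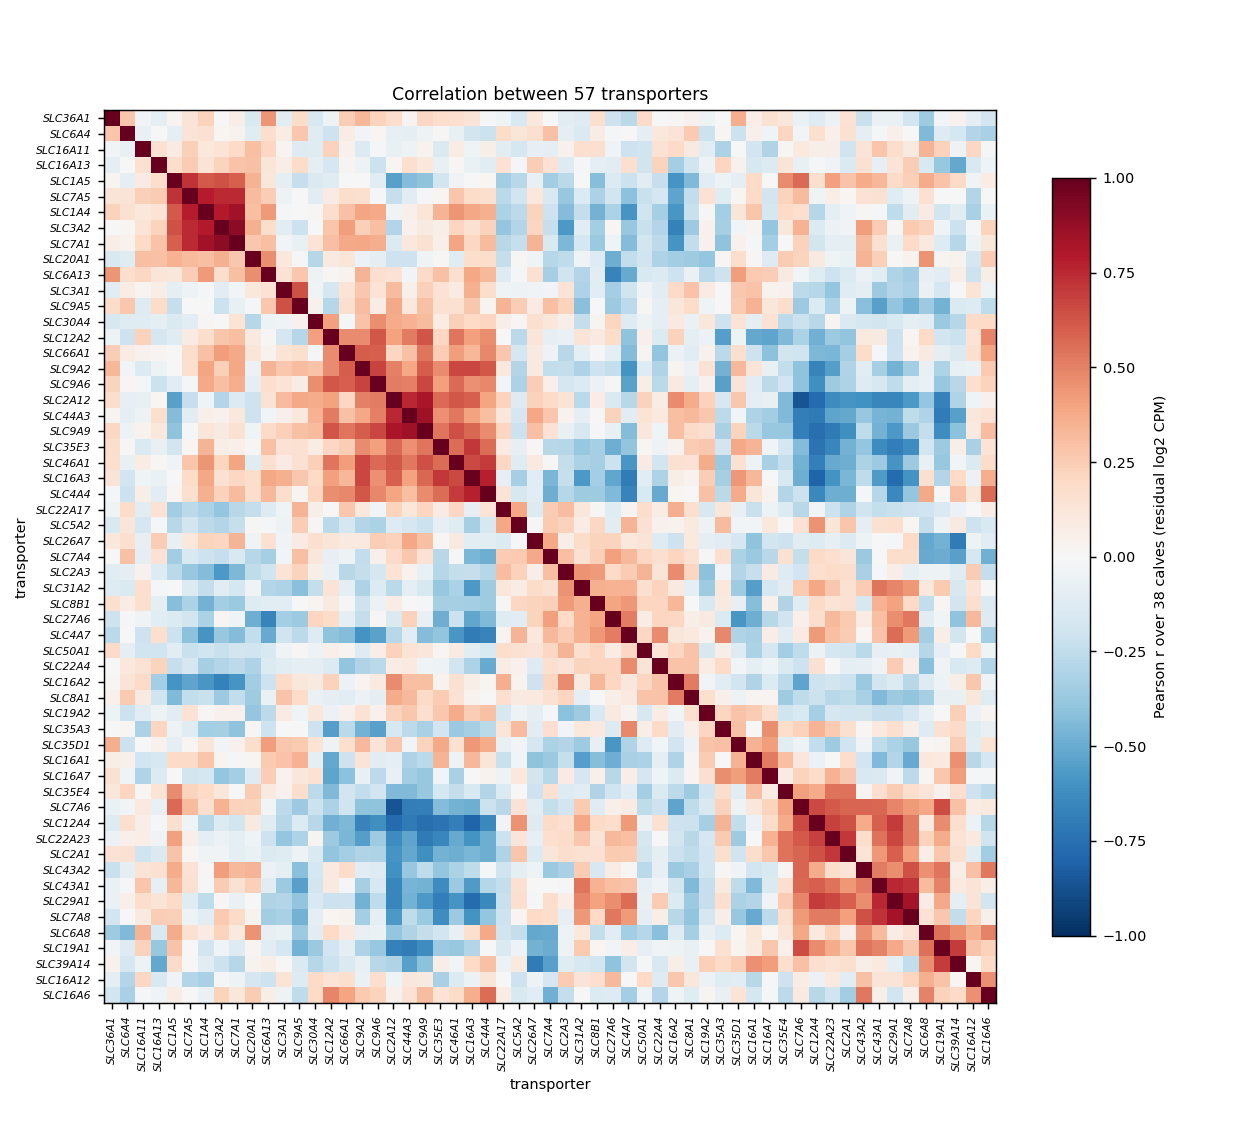
Pearson r between all pairs of 57 transporters over 38 calves (residual log2 CPM after removal of dam age, sex and group), ordered by average-linkage clustering. SLC1A5, SLC7A5, SLC1A4, SLC3A2 and SLC7A1 form a compact block near the upper left, apart from a block that holds SLC2A12, SLC9A9 and SLC44A3 and an opposite block that holds SLC7A6, SLC12A4 and SLC29A1.

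Across all 1653 pairs of members the median size of r was 0.193, with 22 pairs at 0.7 or more and 12 at -0.7 or less. SLC9A9 with SLC44A3 (0.846) and SLC7A8 with SLC29A1 (0.828) were among the highest, and SLC16A3 with SLC12A4 (-0.799) among the lowest. All pairs share the same 38 libraries and the same scaling factors. Of the 21 pairs tested, 12 passed 0.05 after adjustment by Pearson's r, 9 of them positive, and 12 by Spearman's rho. The shares of other gene pairs at these limits were not computed, so nothing particular to the carriers is read from the counts.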

How the data were processed

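LD biopsies of 38 calves were sequenced from stranded poly-A libraries. The authors mapped reads to ARS-UCD1.2 with STAR 2.7.3a and deposited raw counts per Ensembl gene; the strand column kept is not given in the sources used here. Gene symbols were taken from ID and symbol pairs of the study's supplementary tables, whose other values were not used. Members and lists were chosen with earlier results of these data known. Of 27607 genes, 21038 had a count and 12964 passed filterByExpr. Dam age, sex and group were fitted to all calves with edgeR 4.0.16 (quasi-likelihood test, TMM, Benjamini-Hochberg, R 4.3.3); SEs were derived from the fold change and its F statistic. DESeq2 1.42.0 was an alternative. Residual log2 CPM (prior count 2) gave 21 pair correlations, with 100000 two-sided permutations and adjustment over the pairs; 1e-05 is the smallest p these can give. Scripts were tested on simulated data. Named genes were, by a fixed rule, the 2 most abundant members of each role, the smallest p for sex and dam age, the extreme spreads, fold changes and axis correlations, members listed alike in all comparisons by the study, pairs past 0.05 and members near 0.5 CPM. Setting aside A2023, A2052 and A2100 was chosen after seeing the data. One member enters the counts and medians, but its own values are not reported here and are not drawn. Levels were not compared between genes, since exon lengths were not used. No sequence or coordinate of the files' build was used here, so promoter motifs were not searched. Labels name calves but no batches; p-values measure the spread between calves.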

Additional observations from a re-analysis of the deposited data

Results flagged for a closer look

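In 164 groups of values (a named gene in 1 group of calves), 14 had a highest or lowest calf set apart from the rest by a gap that was large for the range of the group on the log2 scale. For normally distributed values of genes not chosen by their values, chance gives about 1 in 20 such groups. The named genes were chosen partly for extreme spreads, fold changes and axis correlations, and flags of 1 calf are not independent. The 14 of 164 are therefore not read against that rate. Calf A2052 of TR1 held 8 of them. It was highest for SLC7A8 (720.3 CPM, next calf 36.8), SLC29A1 (481.7 CPM, next 155), SLC27A6 (134.1 CPM, next 10.0), SLC43A1 (78.89 CPM, next 34.1) and SLC12A4 (38.87 CPM, next 19.1). It was lowest for SLC16A3 (14.8 CPM, next 136.9), SLC35E3 (2.212 CPM, next 6.36) and SLC2A12 (1.211 CPM, next 4.13).

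Calf A2033 of TR3 was highest for SLC4A7 (136.5 CPM, next 58.5) and lowest for SLC46A1 (0.3055 CPM, next 1.23). Calf A2100 of TR2 was highest for SLC16A7 (53.19 CPM, next 11.1), and calf A2023 of TR2 for SLC20A1 (23.78 CPM, next 16.5). Calf A2057 of TR1 was lowest for SLC2A3 (2.307 CPM, next 4.59), and calf A2102 of TR3 for SLC35E3 (5.901 CPM, next 7.86).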

How the results depend on the processing

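The counts of members called for sex and dam age were 0 under each alternative run. At an unadjusted p under 0.05, the count for sex was 5, and 3 without the treatment group term, 2 with dam age as a factor, 7 with the 3 calves set aside and 4 to 7 with each calf left out (7 without A2052). For dam age the count was 1, and 3 with DESeq2, 3 with library sizes, 5 without the filter on low counts, 2 without the group term and 2 with the 3 calves set aside; leaving out each calf gave 0 to 7. Members above CTR numbered 29 to 34 in TR1, 32 to 37 in TR2 and 32 to 36 in TR3 when each calf was left out, and pairs past 0.05 numbered 11 to 14. Members at 0.5 or more with the main axis went from 9 to 4 with the 3 calves set aside, and those at -0.5 or less from 9 to 5 with library sizes. Pairs that did not pass 0.05 turned sign as follows. SLC27A6 with CPT1A had 0.0481 with library sizes, 0.0412 with the 3 calves set aside and -0.182 to 0.108 with each calf left out. SLC16A1 with SLC16A3 had -0.0531 in males and -0.0182 to 0.419 with each calf left out. SLC22A4 with CPT1A had -0.280 in males and -0.0599 to 0.1505 with each calf left out, and SLC22A4 with SLC27A6 -0.0069 with the 3 calves set aside. With each calf left out, SLC2A1 with HK2 had -0.0778 to 0.0896 and SLC39A14 with MT2A -0.0275 to 0.1445. The cause was not tested. The promoter motif search was not run. No paired analysis was possible because the labels give calves no numbers shared between groups.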
